A study of Solanum lycopersicum with 6 samples.

Results

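The floral organ and ovule MADS-box genes are 9 tomato genes that encode transcription factors of flower and seed development, and the methylation of DNA around them was compared between nrpd1 and wild-type (WT) embryos. They were chosen by gene identifier, not by any measured value, though earlier results of these data were known. The 9 genes are TM6 (Solyc02g084630), TAP3 (Solyc04g081000), TAG1 (Solyc02g071730), AGL11 (Solyc11g028020), MBP3 (Solyc06g064840), TM5 (Solyc05g015750), TM29 (Solyc02g089200), MACROCALYX (Solyc05g056620) and JOINTLESS (Solyc11g010570). Of the 132092 regions that the authors listed as differently methylated and assigned to 27473 genes, 70 were assigned to 8 of these 9 genes, and none to TAP3. The nrpd1 group held 3 bisulfite libraries from plants of the cultivar Micro-Tom with a SlNRPD1 knockout, and the WT group 3 libraries from Micro-Tom plants without it. All embryos were 21 days after flowering, and the knockout allele and the number of independent lines are not given in the labels. The labels also do not say if replicate libraries derive from different plants. The files give 1 mean level per genotype and region, averaged over the cells of the embryo samples, with no read depth and no value for a single library. No error between libraries and no test could therefore be attached to any difference below, and gene expression was not analysed here.

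MADS-box proteins bind DNA as dimers and assemble into larger complexes, and the combination present in a whorl of the flower sets the identity of its organs. Petals and stamens need the B class (TM6 and TAP3), stamens and carpels the C class (TAG1), ovules the D class (AGL11 and MBP3), and the SEPALLATA type (TM5 and TM29) joins the complexes of the other classes. MACROCALYX, of the AP1 type, acts in sepal growth and in the pedicel abscission zone, and JOINTLESS is needed for that zone to form. NRPD1 is the catalytic subunit of the plant enzyme Pol IV, which makes the precursors of small RNAs that direct methylation to DNA. Plant DNA carries methylation at CG, CHG and CHH cytosines (H is A, C or T), of which asymmetric CHH methylation cannot be copied from the other strand and has to be set anew after replication.

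Nearly all listed regions of these genes were less methylated in nrpd1 embryos. Of the 70 regions, 67 were lower and 3 were higher. In the CHH context 42 of 43 regions were lower, against 95.8% of all listed CHH regions. In CHG all 18 regions were lower (88.0% of all listed CHG regions), and in CG 7 of 9 (67.7% of all listed CG regions). In the CHH and CHG contexts these counts lie near the shares of the whole tables.

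In points, the sizes of the losses were also close to those of the tables as a whole. Over the 42 CHH losses, the authors' mean was 8.07% in nrpd1 and 23.8% in WT at the median region, and the median difference, nrpd1 minus WT, was -15.1 points, beside -15.7 points over all 73614 listed CHH losses. Differences ranged from -37.9 to -10.05 points, and no region in the whole tables differed by under 10 points. The 18 CHG losses had medians of 32.9% in nrpd1 and 65.1% in WT, with a median difference of -26.8 points beside -27.9 over all listed CHG losses. The 7 CG losses had medians of 29.7% in nrpd1 and 50.3% in WT, both below the 44.1% and 74.7% of all listed CG losses. Their median difference was -24.7 points beside -25.9 over all listed CG losses. The median share of the WT level left was 46.9% at these 7, beside 60.8% over all listed CG losses. CG losses were short, holding between 6 and 16 cytosines, with a median of 10, the same as over all listed CG losses. The median CHH loss held 132.5, beside 143 over all listed CHH losses.

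**Figure D1:**
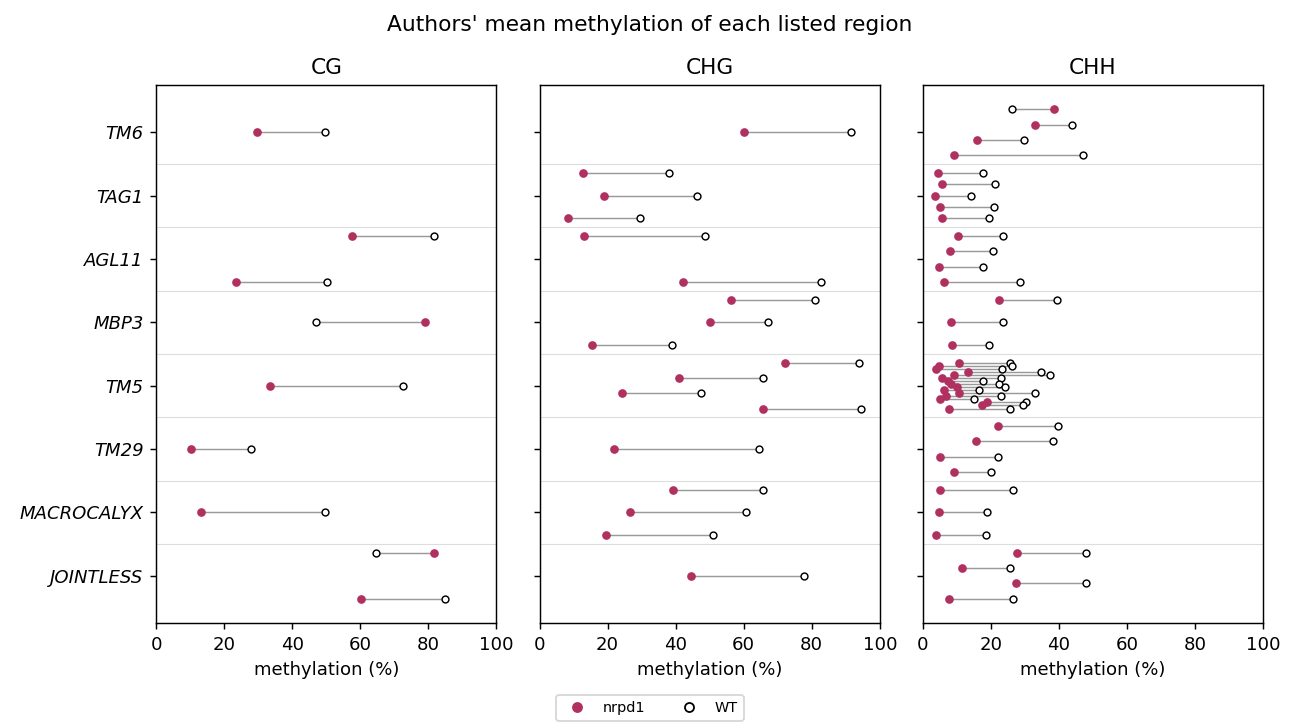
Authors' mean methylation (%) of each listed region of the 8 genes in nrpd1 (filled) and WT (open), joined by a line, for CG, CHG and CHH cytosines. Filled points lie left of open points in 67 of 70 regions, and the exceptions are a CHH region of TM6 and CG regions of MBP3 and JOINTLESS.

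Each of the 8 listed genes had a CHH loss in its promoter (annotated within 2 kb of the transcription start) or within its span. Among all genes named in the tables this share was 72.6%. CHG losses in promoter or span were found at 5 of the 8, namely TM6, TAG1, AGL11, MACROCALYX and JOINTLESS, against 43.1% of all named genes. CG losses in promoter or span were found at 4 of the 8, TM6, AGL11, TM29 and JOINTLESS, against 13.1%. In promoter or span, TM6, AGL11 and JOINTLESS had losses in all 3 contexts, as did 8.07% of named genes. With 8 genes these shares are descriptions only. The genes were also longer than most, from 3.77 kb for TM6 to 8.04 kb for AGL11 beside a median of 2.50 kb over named genes, and the part of length in these shares was not tested.

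**Figure D2:**
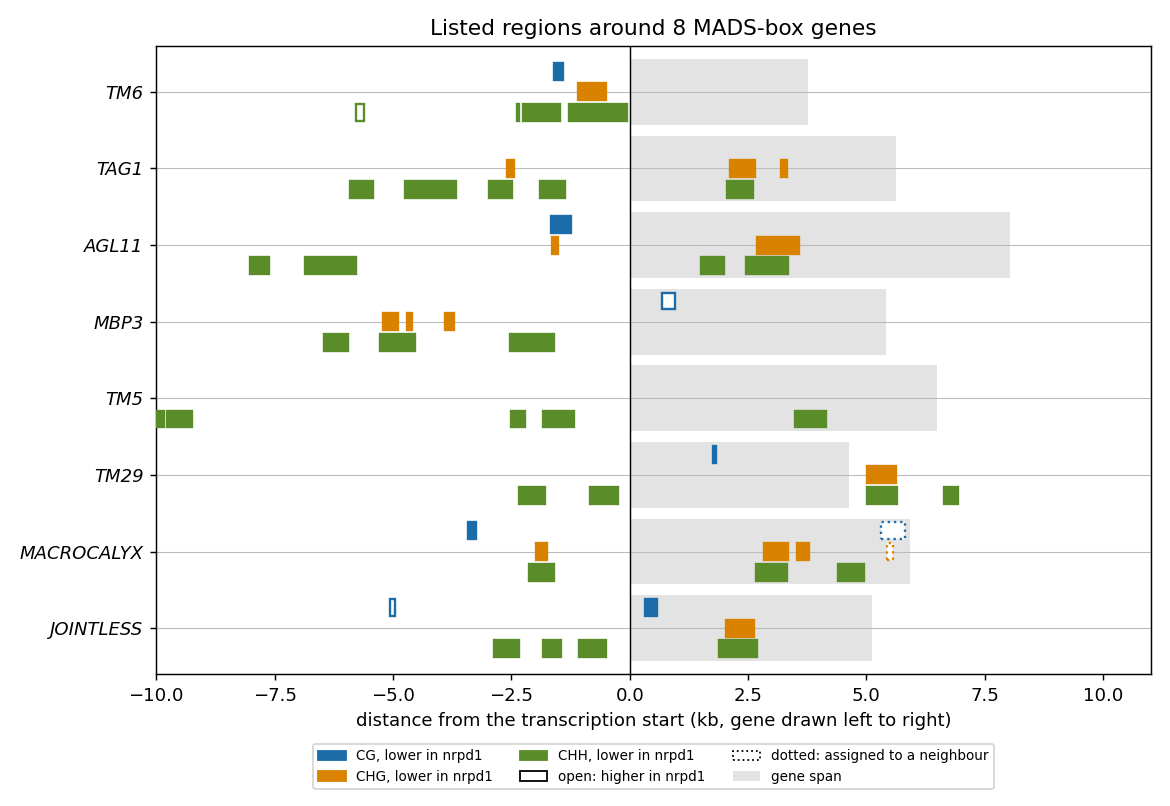
Position of listed regions from 10 kb before the transcription start (0 kb) to beyond the gene end, with each gene drawn left to right and its span in grey. Filled boxes were lower and open boxes higher in nrpd1, and dotted boxes mark gains inside MACROCALYX that the authors' table assigned to a neighbouring gene. Regions of TM5 farther upstream are not drawn here, nor are losses past the ends of TM6, AGL11 and JOINTLESS that were assigned to neighbouring genes.

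Among the B-class genes, TM6 carried the greatest CHH loss of the set, next to its transcription start. A 1217-bp region at chr2:45731982-45733198 (assembly SL4.0), from 58 to 1274 bp upstream of the start, had CHH methylation of 9.26% in nrpd1 embryos, against 47.2% in WT embryos. The difference of -37.9 points, over 267 cytosines, exceeded that of 99.7% of the listed CHH losses with the same promoter annotation. CHG methylation inside this stretch was 60.1% in nrpd1 and 91.6% in WT, so that CHG kept 65.6% of its WT level while CHH kept 19.6%. Listed CHH losses covered 87.9% of the 2 kb upstream of TM6, beside a median of 29.4% over all named genes. Farther upstream the differences were smaller. The neighbouring 800-bp CHH region was at 15.8% in nrpd1 and 29.7% in WT, and a CG region overlapping it at 29.7% in nrpd1 and 49.5% in WT. A 53-bp CHH region beyond it was at 33.0% in nrpd1 and 43.7% in WT. A CHH region 5.61 kb upstream ran the other way, with 38.4% in nrpd1 and 26.1% in WT, and was the only CHH gain assigned to the 9 genes. No listed region lay inside the TM6 gene.

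TAP3, the other B-class gene, was assigned no region in any context, and its own position is not given in the tables. The genes with the nearest lower and higher identifiers that are named there lay 29.1 kb apart on chromosome 4. Between them were 5 listed regions, all lower in nrpd1, and a stretch of 22.3 kb without any (chr4:63028457-63050714). Identifier order need not follow position, so this stretch may not hold TAP3. Levels outside listed regions were not analysed here, and no listed region anywhere differed by under 10 points.

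TAG1, the C-class gene, had CHH and CHG losses both upstream and in its second intron. In AGAMOUS of Arabidopsis, the counterpart of TAG1, the second intron holds the elements that direct its floral expression. In intron 2 of TAG1, CHH methylation was 5.61% in nrpd1 and 19.3% in WT at chr2:39109701-39110248, which starts 2050 bp after the transcription start. CHG methylation in an overlapping region was 19.1% in nrpd1 and 46.3% in WT, over 37 cytosines, the most of any CHG region of the set. A further CHG region of the intron, with 7 cytosines, was at 8.43% in nrpd1 and 29.6% in WT. Upstream, CHH losses at 1.38, 2.48, 3.66 and 5.42 kb had nrpd1 levels between 3.57% and 5.53% and WT levels between 14.1% and 21.3%. A CHG loss 2.45 kb upstream, with 7 cytosines, was at 12.8% in nrpd1 and 38.0% in WT. TAG1 kept between 24.7% and 29.0% of the WT level in each of its 5 CHH losses.

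AGL11, a D-class gene of ovule identity, had no CHH loss in its promoter, unlike the other 7 listed members and 68.3% of named genes. Its CHH losses within the gene lay in the first intron. There the region at chr11:19046679-19047571 was at 6.12% CHH methylation in nrpd1 and 28.6% in WT. CHG methylation over nearly the same stretch was 42.1% in nrpd1 and 82.6% in WT, a difference of -40.5 points. A smaller CHH loss of the same intron was at 4.68% in nrpd1 and 17.6% in WT. In the promoter, between 1233 and 1655 bp upstream, the losses were in CG and CHG. The CG region nearer the start was at 23.6% in nrpd1 and 50.3% in WT, the farther one at 57.6% in nrpd1 and 81.8% in WT, and a CHG region overlapping the farther one at 13.1% in nrpd1 and 48.5% in WT. These regions held between 7 and 13 cytosines each, and none overlapped a listed CHH loss. Farther upstream, CHH losses at 5.77 and 7.62 kb were at 8.00% in nrpd1 and 20.5% in WT, and at 10.4% in nrpd1 and 23.6% in WT.

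Summed over promoter and span in the 3 contexts, AGL11 had the greatest loss of the set, 162 points. The sum adds points per region, whatever its width, cytosine number or context. At AGL11 it held 50.9 points in CG, 75.9 in CHG and 35.4 in CHH. It exceeded the sum of 77.3% of the genes ranked. This ranking appears to hold only genes with such a loss, since only 1.49% of them lay below the 10.7 points of MBP3. The 3 genes with the most similar losses, by Euclidean distance over the summed CG, CHG and CHH losses, were Solyc01g011050 (distance 0.986 points), Solyc08g062380 (3.77) and Solyc11g028040 (4.92). The files do not pair these identifiers with names.

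MBP3, the close relative of AGL11, had another layout of listed regions. Its span held no listed loss, and its only region inside the gene was a CG gain. In intron 1, from 684 to 949 bp after the start (chr6:38065003-38065268), CG methylation was 79.1% in nrpd1 and 47.0% in WT over 14 cytosines. CG gains in promoter or span were listed for 4.47% of named genes, and gains in any context for 7.29%. In the promoter a CHH region was at 8.63% in nrpd1 and 19.4% in WT, a difference of -10.7 points near the smallest listed. The remaining losses lay between 3.70 and 5.95 kb upstream. A CHG loss there with 17 cytosines was at 56.2% in nrpd1 and 80.9% in WT, and the CHH region around it at 8.20% in nrpd1 and 23.5% in WT. Summed promoter and span losses were 10.7 points at MBP3 and 162 points at AGL11, from 1 and 6 regions.

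Of the SEPALLATA-type genes, TM5 had more listed regions than 99.1% of named genes, nearly all of them far upstream. It was assigned 21 regions, of which 16 were CHH losses, beside a median of 4 regions and 2 CHH losses per named gene. Beyond 2 kb upstream, 14 CHH losses were spread out to 40.1 kb and together covered 12.5 kb, or 31.9% of the stretch from 2000 to 41310 bp upstream. Their levels ranged from 3.85% to 18.9% in nrpd1 and from 15.03% to 37.3% in WT. The widest, 2728 bp long and 11.4 kb upstream, was at 10.5% in nrpd1 and 32.9% in WT over 616 cytosines. The greatest difference, -28.3 points, lay 29.04 kb upstream, with 9.03% in nrpd1 and 37.3% in WT. The next named gene upstream of TM5 was 123 kb away, the most of the 8 genes, and regions were assigned to 1 gene each. The part of this distance in the count of regions was not tested.

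CHG methylation stayed high at some of these distal sites of TM5. At 12.0 kb upstream, CHG was 65.7% in nrpd1 and 94.4% in WT, and at 32.9 kb it was 72.1% in nrpd1 and 93.9% in WT. The 4 CHG losses of TM5 held between 4 and 16 cytosines, and each overlapped a CHH loss. A single CG loss, 23.1 kb upstream, was at 33.4% in nrpd1 and 72.7% in WT. Near the gene the losses were few. A promoter CHH region was at 17.3% in nrpd1 and 29.5% in WT, and a CHH region in intron 2 (chr5:11943880-11944530) at 7.72% in nrpd1 and 25.7% in WT. No CG or CHG region was listed within 2 kb upstream or in the span.

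**Figure D3:**
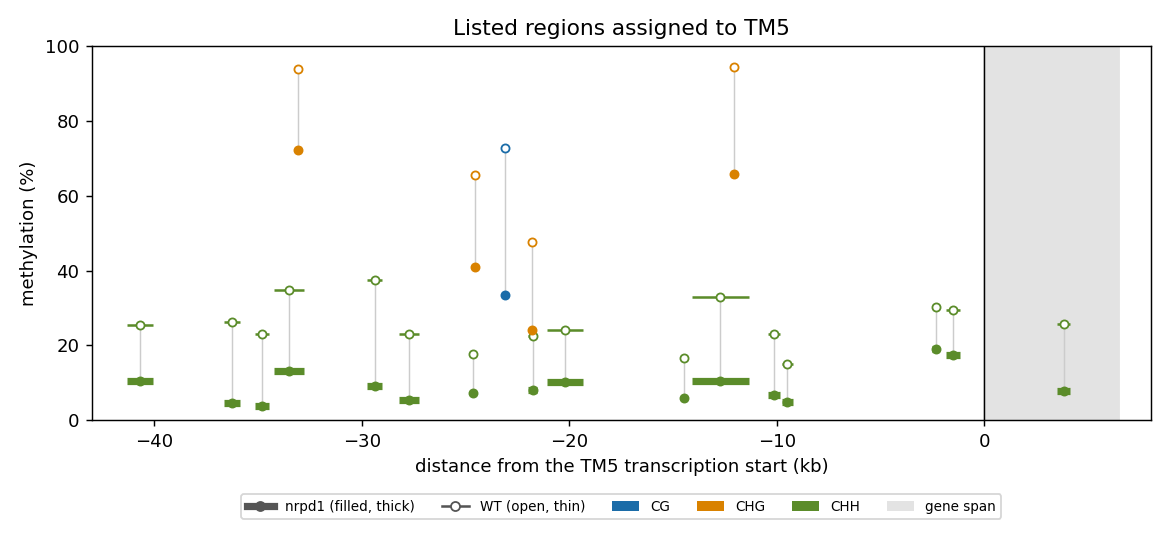
Authors' mean methylation (%) in nrpd1 (filled, thick) and WT (open, thin) of the 21 listed regions of TM5 by distance from its transcription start (kb). Every nrpd1 value lies below its WT value, and 19 of the 21 regions lie more than 2.2 kb upstream.

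TM29, the other SEPALLATA-type gene, had CHH losses on either side of the gene. In the promoter, the region 241 to 831 bp upstream (chr2:49120301-49120891) was at 15.5% in nrpd1 and 38.2% in WT, and a region 1.80 kb upstream at 22.0% in nrpd1 and 39.7% in WT. No CHG loss was listed at either. Past the gene end, CHG and CHH losses coincided at chr2:49126145-49126773. CHG methylation there was 22.0% in nrpd1 and 64.6% in WT, and its difference of -42.6 points was the greatest CHG difference of the set. CHH methylation was 4.89% in nrpd1 and 22.0% in WT, and a further CHH region past the gene was at 9.0% in nrpd1 and 20.1% in WT. Within the gene a single CG region of 6 cytosines, in intron 1, was at 10.1% in nrpd1 and 28.0% in WT.

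MACROCALYX lost non-CG methylation in the middle of the gene, whereas its 3′ end held more CG and CHG methylation in nrpd1. Of its span, 20.7% lay in CHH losses and 13.0% in CHG losses, the highest shares of the set. At chr5:5297021-5297680 CHH methylation was 4.84% in nrpd1 and 18.9% in WT, and CHG methylation in an overlapping region was 26.5% in nrpd1 and 60.6% in WT. A nearby CHG region was at 19.4% in nrpd1 and 51.0% in WT, and a CHH region nearer the 3′ end at 3.76% in nrpd1 and 18.6% in WT. The annotation placed these 4 regions at exons, although regions of this width may also include intron sequence. In the promoter, CHH methylation was 5.05% in nrpd1 and 26.5% in WT, and CHG methylation 39.3% in nrpd1 and 65.6% in WT. That CHH region reached 2121 bp upstream, past the near edge of the neighbouring gene, which lies 1.99 kb away. A CG loss 3.24 kb upstream was at 13.3% in nrpd1 and 49.5% in WT. It was annotated to an intron of that neighbour, Solyc05g012020, although the table assigned it to MACROCALYX.

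The authors' table assigned the gains at the 3′ end of MACROCALYX to the adjacent gene Solyc05g012010, while its annotation column placed them in an exon of MACROCALYX. They are therefore not among the 70 regions. CG methylation at chr5:5294546-5295053 was 69.3% in nrpd1 embryos, against 22.8% in WT embryos, a difference of 46.6 points over 16 cytosines. Inside it, CHG methylation was 55.5% in nrpd1 and 9.45% in WT over 6 cytosines. The gains exceeded 95.7% of all listed CG gains and 96.1% of all listed CHG gains in points. They lay 118 to 625 bp before the gene end, and 342 bp separated the CG gain from the nearest CHH loss of the gene. The annotation calls this exon 1 of 8. Exon numbers in the tables ran against transcription on the minus strand (Spearman's rho between number and position -0.897 over 1514 regions) and with it on the plus strand (0.860 over 1376 regions), so that on this minus-strand gene it is the last exon. Intron numbers ran with transcription on both strands.

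JOINTLESS had CHH losses upstream and losses in all 3 contexts in its first intron. By the share of the WT level left, the CHH loss of the intron kept 28.7%, and the 2 promoter CHH losses kept 45.4% and 57.0%. In the region 489 to 1064 bp upstream (chr11:3670168-3670743), CHH methylation was 27.3% in nrpd1 and 48.0% in WT. The regions 1.46 and 2.34 kb upstream were at 11.6% in nrpd1 and 25.5% in WT, and at 27.6% in nrpd1 and 47.8% in WT. In intron 1 (chr11:3673122-3673930) CHH methylation was 7.61% in nrpd1 and 26.5% in WT, with CHG at 44.5% in nrpd1 and 77.8% in WT. A CG loss nearer the start, in the same intron, was at 60.1% in nrpd1 and 84.8% in WT. A CG region 4.95 kb upstream was higher, with 81.7% in nrpd1 and 64.6% in WT.

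Across the genes, CHH losses within gene spans were left with a smaller share of the WT level than most of those in promoters. The 7 losses in spans kept between 20.2% and 29.99% of the WT level (median 26.6%), close to the 28.4% of all listed losses in spans. Of these 7, 5 lay in introns of TAG1, AGL11, TM5 and JOINTLESS. The 10 promoter losses kept a median of 45.0%, beside 29.8% over all listed promoter losses. They fell into 3 that kept under 25%, at TM6, TAG1 and MACROCALYX, and 7 that kept between 40.7% and 58.8%, at TM6, MBP3, TM5, TM29 and JOINTLESS. WT levels of the promoter losses spanned 19.4% to 48.0% and those in spans 17.6% to 28.6%. The regions share libraries and sometimes a gene, and this difference between places was not tested.

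**Figure D4:**
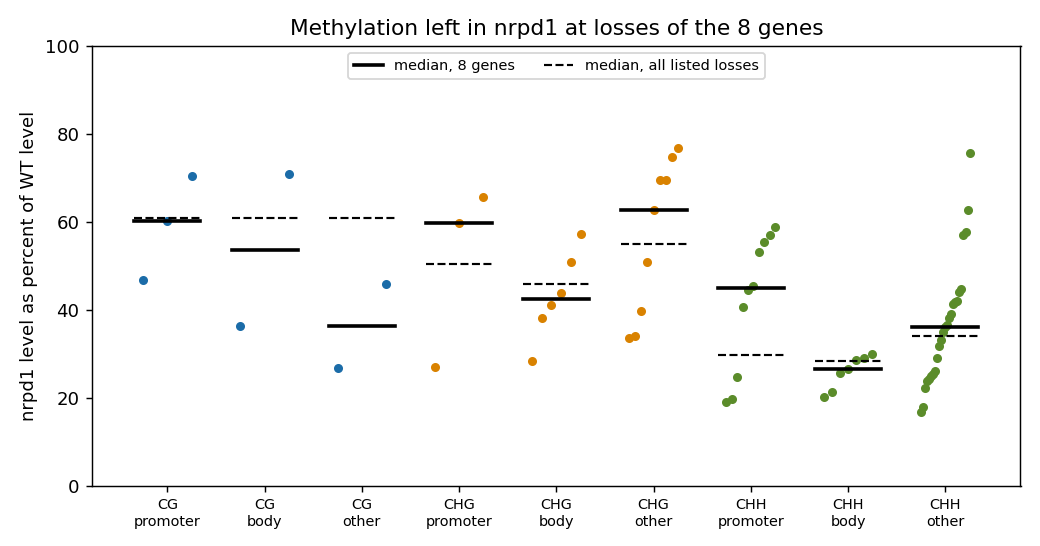
Level in nrpd1 as a percentage of the WT level for each listed loss (points) of the 8 genes, by context and place, with the median of these genes (solid) and of all listed losses (dashed). CHH losses in gene spans lie between 20.2% and 29.99%, and 7 of 10 in promoters lie between 40.7% and 58.8%.

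By position alone, whatever gene a region was assigned to, listed CHH losses covered between 0% (AGL11) and 87.9% (TM6) of the 2 kb upstream of the 8 genes. The median was 29.5%, beside 29.4% over all named genes. Of the gene spans, CHH losses covered a median of 9.88%, beside 0% over all named genes, of which 27.5% had any. The spans of TM6, MBP3 and TM29 had none. Past the 3′ ends of TM6, AGL11 and JOINTLESS, between 53 and 469 bp from the end, lay CHH losses that the table assigned to the neighbouring genes. The TM6 one was at 7.58% in nrpd1 and 27.7% in WT, the AGL11 one at 8.44% in nrpd1 and 23.9% in WT, and the JOINTLESS one at 17.0% in nrpd1 and 36.8% in WT.

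**Figure D5:**
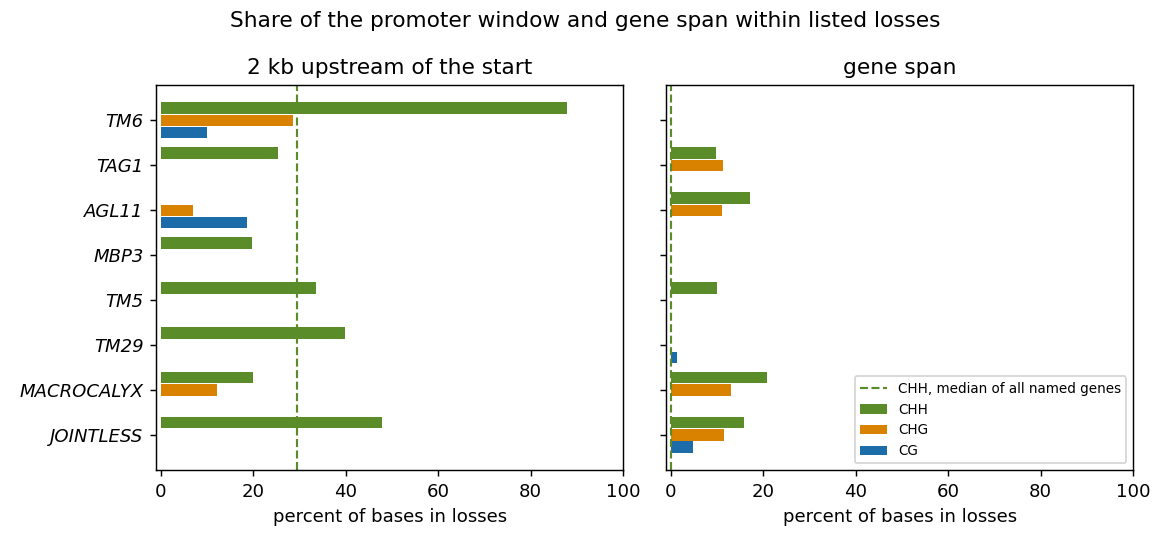
Percentage of bases within listed CHH, CHG and CG losses in the 2 kb upstream of the transcription start (left) and in the gene span (right), with the CHH median of all named genes dashed. TM6 has 87.9% of its upstream window and 0% of its span in CHH losses, and MACROCALYX has 20.7% of its span.

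CHG losses of the set mostly lay on CHH losses, as they did in the whole tables. Of the 18, 14 overlapped a CHH loss by at least 1 bp (77.8%, beside 75.7% of all listed CHG losses). The exceptions were CHG losses in the intron of TAG1, the promoter of AGL11, the far upstream part of MBP3 and the span of MACROCALYX. Conversely, a CHG loss was present under 13 of the 42 CHH losses (31.0%, beside 35.4% of all listed CHH losses). Of the 7 CG losses only that in the TM6 promoter overlapped a CHH loss. The share among all listed CG losses was not computed, so this count cannot be read as particular to these genes.

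A list of 13 other tomato MADS-box genes, given by identifier and not paired with names in the files, was assigned 118 regions. CHH losses in promoter or span were present at 10 of the 13, CHG losses at 12 and CG losses at 3, beside 72.6%, 43.1% and 13.1% of named genes. Losses in all 3 contexts in promoter or span were present at 2 of the 13, Solyc07g055920 and Solyc05g012020, beside 8.07% of named genes. Solyc05g012020 is the upstream neighbour of MACROCALYX. A gain in promoter or span was listed at Solyc07g055920 alone, in CG, and by the authors' assignment at MBP3 alone among the 8. The median CHH difference was -16.5 points over 71 losses of this list and -15.1 points over the 42 of the 9 genes. By the authors' assignment, CHH losses lay within the span of 10 of the 13 and of 5 of the 8, beside 15.0% of named genes. By position, whatever gene a region was assigned to, 27.5% of named genes had a CHH loss in the span. This count by position also takes in promoter regions that reach into the span. Both lists were compared with named genes without regard to gene length or position on the chromosome.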

How the data were processed

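Bisulfite libraries were made from embryo DNA, per the labels' protocols. Per the submitters' processing notes, the tools included Trim Galore 0.6.7 and Bismark 0.24.0. How regions were called, the conversion rate and read depth were not given in the sources used here, and no interval could be computed. Incomplete conversion would raise apparent CHH methylation most. The authors deposited 1 table per context with the mean methylation of each genotype as a fraction per region, per the file headers, printed here as percent. Differences are nrpd1 minus WT in points. A deposited region statistic, a score without fixed range, was used only as an alternative threshold. No deposited value belongs to a single library.

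The 9 genes and the list of 13 others were chosen with earlier results of these data known. All regions of the 9 genes entered the counts and medians, and not every region is described singly. Genes most like a member were the 3 nearest, by summed promoter and span loss, to the member with the greatest loss. Promoter regions are those annotated so by the authors. Span regions are those of the rest that overlap the assigned gene. Names came with the gene list: in the RefSeq gene table (SLM_r2.1), 9 of 9 names lay on the chromosome of the identifier, but the table holds no such identifiers. No sequence was used. Computation used Python 3.11.15 and pandas 2.3.3, and the counting was tested on simulated regions. Alternatives were stricter differences, statistics, cytosine numbers, places and overlaps.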

Additional observations from a re-analysis of the deposited data

Results flagged for a closer look

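The rise of CG methylation at the 3′ end of MACROCALYX, 46.6 points (69.3% in nrpd1, 22.8% in WT), and that of CHG methylation inside it, 46.03 points (55.5% in nrpd1, 9.45% in WT), were picked out because they lie in the gene but in table entries assigned to an adjacent gene, outside the regions counted for the 9 genes, and are above the WT level. They rest on 16 and 6 cytosines, and no value of a single library bears on them.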

How the results depend on the processing

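No paired analysis was possible because the deposited values are means per genotype, and for the same reason no library could be left out. With regions of at least 20 points only, 10 of 42 CHH losses were left, beside 25.5% of all listed CHH losses. Of the CHG losses, 17 of 18 were left, beside 86.3% of all listed CHG losses, and of the gains 1 of 3. With this limit on both contexts, 5 of the 14 CHG losses overlapping a CHH loss were left. A CHH loss in promoter or span remained at 5 of 8 genes, and the share of named genes at this limit is not given here. The median CHH difference was -21.9 points. With the 50% of regions of larger statistic, 18 CHH, 9 of 18 CHG and 3 of 7 CG losses and 7 overlapping CHG losses were left, with a median CHH difference of -17.3 points. With at least 10 cytosines, 10 CHG and 4 CG losses and 9 overlapping CHG losses were left. In promoter or span alone there were 17 CHH and 9 CHG losses, 1 gain and 6 overlapping CHG losses, with a median CHH difference of -15.6 points. The mean CHH difference weighted by cytosines was -17.7 points. Each lower count follows from the narrower selection. Of the values under alternatives, 15 were counts within 1.5 times the first count or a median that stayed the same, 21 were counts beyond that or medians and means that changed by any amount, and none reversed. Leaving out TM5, an alternative chosen after seeing the data, left 26 CHH losses with a median difference of -15.1 points. Depth is unknown, so what it limits cannot be stated.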
